A study of Homo sapiens with 6 samples.

Results

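Bidirectional promoters are stretches of DNA from which 2 neighbouring genes are transcribed in opposite directions. Here they were taken as the ATAC-seq peaks centred between, or within 250 bp of, the start sites of a minus-strand and a plus-strand protein-coding gene that point away from each other and lie at most 1000 bp apart in GENCODE release 44. This rule used positions only, and no count. It found 888 such gene pairs with 1712 genes, which is 8.54% of the 20046 protein-coding genes, and 739 member peaks among the 152800 peaks of the table (0.484%). The 739 peaks lay on 23 chromosomes and belonged to 783 of the pairs.

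The peaks were measured in A375, an established human melanoma cell line, by ATAC-seq, in which the Tn5 transposase cuts and tags DNA that is not covered by nucleosomes. The groups were 3 libraries of cells with an empty vector (empty vector) and 3 libraries of cells overexpressing HMGB2 (HMGB2OE), a chromatin protein that binds and bends DNA, and the comparison asks where accessibility differs between the 2 lines. Each group was 1 line made with a lentiviral vector, and all cells were frozen and thawed before the libraries were made. The libraries of a group were technical replicates of an experiment done once, so the p-values below measure only the spread between these libraries. The peak counts of a library summed to 26910189 at the least and 45645294 at the most.

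At a bidirectional promoter, one open region usually serves both genes, and each gene has its own core promoter at its edge of that region. Such promoters typically lie in CpG islands, seldom have a TATA box, and are often bound by factors of housekeeping promoters such as GABPA, NRF1, YY1 and NF-Y. DNA repair genes, mitochondrial genes and the paired histone genes are well-known users of this arrangement.

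The sequence between the start sites of 9 pairs is shown for what the results turn on: 3 pairs with small differences between the lines and different motifs (STX10/IER2, GPC2/STAG3 and WFDC3/DNTTIP1), 1 with an ETS word (LCMT2/ADAL), 2 pairs known from textbooks (PPAT/PAICS and SARS2/MRPS12), 1 divergent histone pair, and 2 copies of a cancer-testis pair that cannot be told apart. All were read from hg38, upper strand, without the start bases themselves, so that the minus-strand gene begins just left of the first base and the plus-strand gene just right of the last. In each name the minus-strand gene comes first. Capitals mark the motif words listed in the paragraph on motifs, on either strand. The intervals are chr19:13150384-13150410 (STX10/IER2), chr7:100177382-100177562 (GPC2/STAG3), chr20:45791933-45791953 (WFDC3/DNTTIP1), chr15:43330583-43330671 (LCMT2/ADAL), chr4:56435616-56435740 (PPAT/PAICS), chr19:38930764-38930943 (SARS2/MRPS12), chr6:26216689-26216920 (H2BC8/H2AC8), chrX:152714550-152714585 (CSAG2/MAGEA2B) and chrX:152753885-152753920 (MAGEA2/CSAG3). None overlaps an annotated exon. All but 2 of them are intergenic: that of SARS2/MRPS12 lies in an intron of ENSG00000269547, and that of H2BC8/H2AC8 within ENSG00000291336 and ENSG00000291338, outside their exons.
STX10/IER2: cttccggtgcacatgcCCCCGCCCCtt
GPC2/STAG3: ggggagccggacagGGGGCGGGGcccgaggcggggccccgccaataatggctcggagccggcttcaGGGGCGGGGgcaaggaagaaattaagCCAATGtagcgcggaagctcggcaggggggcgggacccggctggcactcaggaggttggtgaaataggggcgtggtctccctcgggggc
WFDC3/DNTTIP1: ctccagTGACGTCAcggcgcc
LCMT2/ADAL: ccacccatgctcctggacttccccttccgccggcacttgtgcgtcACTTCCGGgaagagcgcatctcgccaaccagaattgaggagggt
PPAT/PAICS: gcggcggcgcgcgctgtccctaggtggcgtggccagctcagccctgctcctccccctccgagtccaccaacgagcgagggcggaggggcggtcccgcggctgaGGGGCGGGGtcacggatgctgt
SARS2/MRPS12: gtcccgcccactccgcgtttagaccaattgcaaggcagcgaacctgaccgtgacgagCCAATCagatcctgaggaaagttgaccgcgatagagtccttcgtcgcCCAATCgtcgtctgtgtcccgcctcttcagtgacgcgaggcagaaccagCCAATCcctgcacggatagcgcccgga
H2BC8/H2AC8: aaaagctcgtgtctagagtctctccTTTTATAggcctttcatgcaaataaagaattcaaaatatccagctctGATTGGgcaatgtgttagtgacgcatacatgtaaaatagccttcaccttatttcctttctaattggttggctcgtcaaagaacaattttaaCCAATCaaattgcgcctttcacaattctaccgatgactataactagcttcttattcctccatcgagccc
CSAG2/MAGEA2B: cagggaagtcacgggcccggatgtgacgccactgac
MAGEA2/CSAG3: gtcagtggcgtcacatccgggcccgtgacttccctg

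STX10 and IER2 are separated by 27 bases that hold 1 GC box, and WFDC3 and DNTTIP1 by 21 bases that hold 1 full CREB/ATF site. GPC2/STAG3 has 2 GC-box words and 1 CCAAT word, whereas SARS2/MRPS12 has 3 CCAAT words and no GC-box word. Only the exact words searched were counted. Both intervals also hold a CCAAT followed by another base, and SARS2/MRPS12 holds the shorter string CCCGCCC. The histone interval is the only one of the 9 with a TATA word, read on the strand of H2BC8, and its G + C content of 38.4% compares with 76.0% for PPAT/PAICS. The 36-base interval of MAGEA2/CSAG3 is the exact reverse complement of that of CSAG2/MAGEA2B.

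The start sites of the 888 pairs lay a median of 132 bp apart (25th to 75th percentile, 69 to 248 bp; range, 1 to 995 bp). Of the 739 peaks, 323 (43.7%) were centred between the start sites of a pair, and the median distance of the peak centre from the midpoint was 86 bp. Centres fell on either side of it, 379 towards the minus-strand gene and 360 towards the plus-strand gene. A peak was 502 bp wide, so 1 peak commonly covered both start sites, and its count cannot be divided between the genes. Other peaks covered only 1 start site or neither. Of the pairs, 770 had 1 member peak and 13 had 2, and 54 peaks belonged to more than 1 pair because a gene had several partners.

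In the 13 pairs with 2 peaks, the sides of the promoter could be compared in the empty vector cells. The higher side had at most 1.5 times the count of the lower in 9 pairs, and over 4 times in 2 (APBA3/MRPL54 and MIX23/FAM162A). Of the 9, the 2 with TXNL4A share their peaks. At MIX23/FAM162A, with start sites 930 bp apart, the normalized count (counts scaled to the mean effective library size) was 379 on the MIX23 side and 1769 on the FAM162A side. At BFSP1/DSTN, 855 bp apart, it was 1330 and 1303. BFSP1 encodes a lens filament protein and DSTN the actin-severing protein destrin, yet the sides had about the same count. All pairs named here were chosen with their values known.

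The remaining 105 pairs had no member peak. For 62 of them a peak was centred within 1000 bp of the midpoint but outside the 250-bp margin, and for 17 none lay within 5000 bp. Among those 17 were OR11A1/OR2H1, both olfactory receptor genes, TPRX1/CRX, with the photoreceptor factor CRX, FOXL2/FOXL2NB, with a factor of the ovary, and MS4A6A/MS4A4A, which are expressed in myeloid cells. The same 17 also held ATP5MJ/TDRD9 and CFAP90/MTRR, and ATP5MJ and MTRR are not genes of a single tissue. These pairs were named after the list was seen. The limit of 1000 bp separated no values sharply: the peaks just inside it (PSMB1/TBP, 995 bp) had 637 and 1038 normalized counts in empty vector and log2 fold changes of -0.13 and -0.13, and those just outside (TXNDC12/BTF3L4, 1008 bp) had 1027 and 1111, with -0.18 and -0.19.

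Of the 739 members, 738 had counts high enough to be tested. The exception was BOLA2/SLX1B, genes that exist in near-identical copies on chromosome 16, whose peak was at 0 mean normalized counts in both groups. The checks of the labels gave mixed values. Peaks within 1000 bp of the start sites were found for the melanocyte genes SOX10, MITF and PMEL, with mean normalized counts in empty vector of 103, 1325 and 3797, but none for MLANA, TYR and DCT. The peak counted for PMEL is the PMEL/RAB5B member. It covers the start site of RAB5B and not that of PMEL, so its count cannot be assigned to PMEL. No peak was found there for CDH1, PTPRC, CD3E, PECAM1 or CDH5, while EPCAM had 221 and KRT8 760. In HMGB2, 2 peaks inside the gene rose from 28.7 ± 6.28 to 63.0 ± 10.6 and from 32.0 ± 15.7 to 98.4 ± 5.31 (SD, n = 3 each; edgeR adjusted p = 0.00822 and 0.000113). Reads of the introduced HMGB2 sequence and of the gene cannot be told apart there. The HMGB2 promoter peak was at 1986 ± 223 and 1973 ± 59 (SD, n = 3 each).

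Bidirectional promoters were among the most accessible peaks of these cells. Their median normalized count in empty vector was 1062 (5th to 95th percentile, 287 to 2504), against 697 (74.3 to 2023) for 8413 promoter peaks of protein-coding genes with no such partner, called one-way promoters here, and 104 (29.2 to 1040) for all 150117 tested peaks. Ranked by mean normalized count over the 6 libraries, 549 members (74.4%) lay in the top decile of all tested peaks. Members took 2.23 to 2.26% of the counts of an empty vector library and 2.10 to 2.18% of an HMGB2OE library. One-way promoters took 18.0 to 18.2% and 17.4 to 17.8%. In both classes the shares did not overlap between the groups. The libraries agreed closely at these peaks. The median coefficient of variation in empty vector was 5.85% in members, 6.77% in one-way promoters and 12.5% over all tested peaks. These classes differ in level, and the part of level in these values was not tested.

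**Figure D1:**
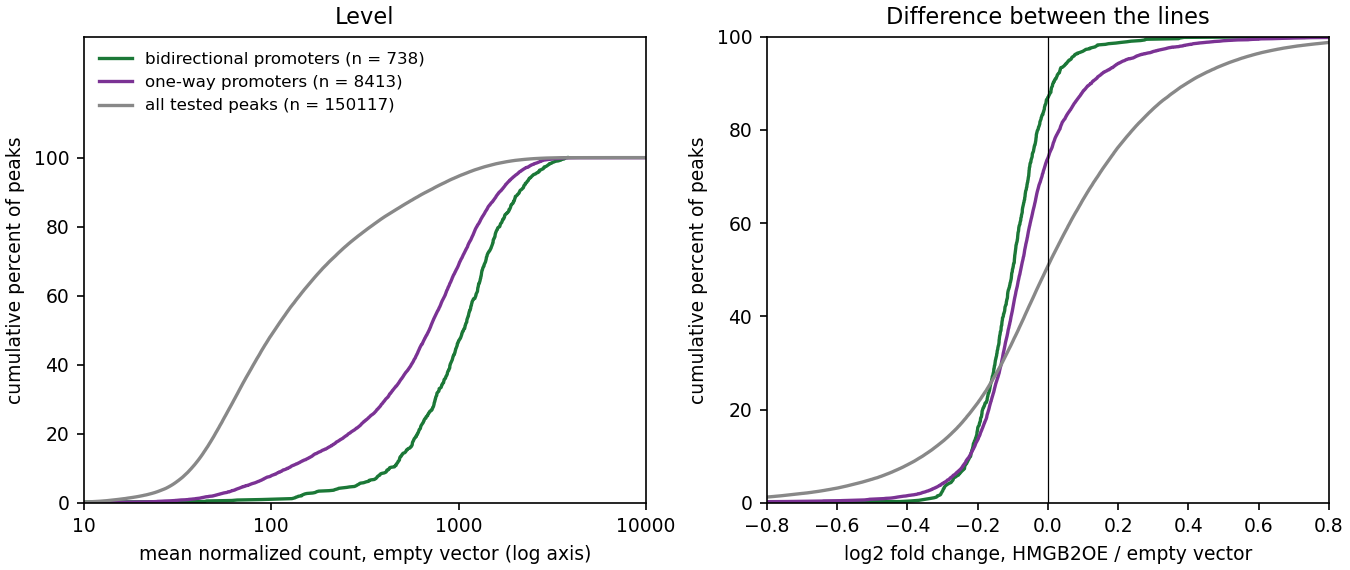
Cumulative percent of peaks by mean normalized count in empty vector (left, log axis) and by log2 fold change of HMGB2OE over empty vector (right), for 738 bidirectional promoter peaks, 8413 one-way promoter peaks and all 150117 tested peaks. The bidirectional promoters lie to the right of both other curves in level, with a median of 1062, and rise steeply left of 0 in fold change, where 87.0% of them have values below 0.

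The members with the highest counts were led by PMEL/RAB5B, whose start sites are 596 bp apart. PMEL encodes the fibril-forming protein of melanosomes and RAB5B a GTPase of early endosomes. The normalized counts were 3467, 3760 and 4162 in empty vector and 3885, 3416 and 3917 in HMGB2OE (log2 fold change -0.02, standard error 0.074). The groups overlap fully. NDUFA11/ENSG00000267314 (mean 3678 in empty vector), TPR/ODR4 (3674) and TRMT1L/SWT1 (3530) were also among the 5 highest. The peak of NDUFA11/ENSG00000267314 covers neither start site, and that of TPR/ODR4 covers the start site of TPR only. NDUFA11 encodes a subunit of respiratory complex I, TPR a protein of the nuclear pore basket and TRMT1L a tRNA methyltransferase-like protein. Their log2 fold changes lay between -0.07 and 0.01, and the smallest edgeR adjusted p of these 4 members was 0.603. The signs at PMEL/RAB5B, NDUFA11/ENSG00000267314 and TRMT1L/SWT1 flip under other scalings or without single libraries.

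Of the 5 members with the lowest counts, 3 hold duplicated genes. At CSAG2/MAGEA2B, counts in empty vector were 1.39, 2.58 and 12.9 and in HMGB2OE 10.2, 11.7 and 4.50. At MAGEA2/CSAG3 they were 12.5, 17.2 and 14.0 against 5.95, 9.17 and 6.75. The MAGEA and CSAG genes are cancer-testis genes, expressed in the germ line and in some tumours. Since the intervals between the start sites are the same sequence, reads of either copy may be placed at the other, and each value is uncertain. The 95% intervals of the log2 fold change were -0.81 to 2.19 and -2.12 to 0.12, and both include 0. SATL1/ZNF711 (mean 44.3 in empty vector), OSTM1/NR2E1 (45.2; NR2E1 is a nuclear receptor of neural stem cells) and SRGAP2B/FAM72D (61.6) completed the 5. SRGAP2B and FAM72D also belong to families of duplicated genes, so their counts carry the same doubt.

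Levels were set beside the spacing of the start sites, as a description with no test. The median normalized count in empty vector was 758 for the 114 members with start sites at most 50 bp apart. It was 928 at 51 to 100 bp (n = 158), 1144 at 101 to 200 bp (n = 213) and 1320 at 201 to 300 bp (n = 107). It was 1228 at 301 to 500 bp (n = 77) and 992 at 501 to 1000 bp (n = 69). The most closely spaced pairs thus had the lowest median, but the ranges from the 25th to the 75th percentile overlapped widely between neighbouring classes. This range was 522 to 1158 in the first class, 604 to 1327 in the second and 934 to 1938 in the fourth. A peak of fixed width takes in both start sites at short spacing and not always at long spacing, and its part in these values was not tested.

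**Figure D2:**
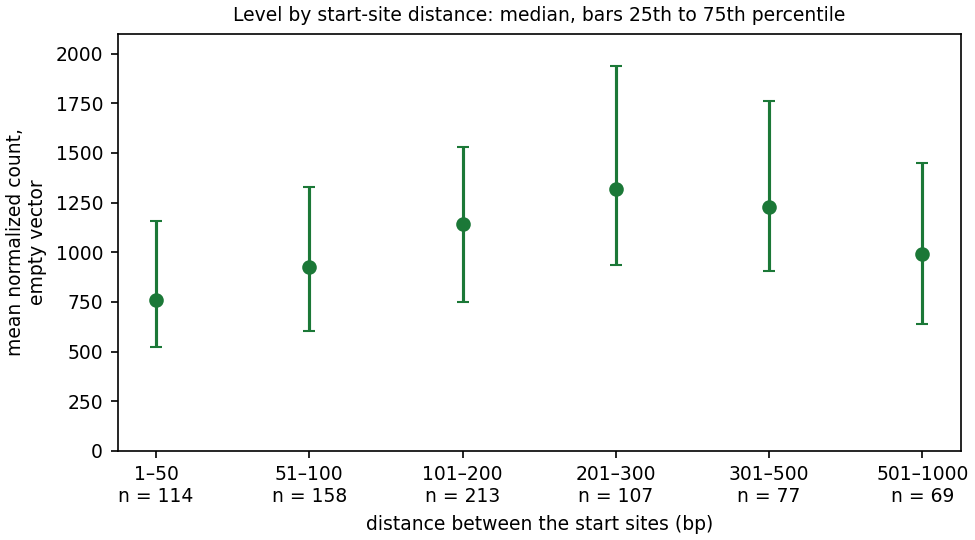
Mean normalized count in empty vector (vertical axis, from 0) of bidirectional promoter peaks in 6 classes of the distance between their start sites in bp (horizontal axis), as medians with bars from the 25th to the 75th percentile. Medians climb from 758 at 1 to 50 bp to 1320 at 201 to 300 bp and are 992 at 501 to 1000 bp, with bars that overlap between neighbouring classes.

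Base content around the midpoints of the 884 distinct start-site pairs was close to mirror-symmetric. G + C content was 64.6% within 50 bp of the midpoint, 61.8% from 500 to 51 bp on its left and 61.4% over the same span on its right, and fell to 48.2% and 47.7% in the outermost 50 bp, near 1000 bp. On the upper strand, C outnumbered G on the left, with a G-against-C skew (difference divided by sum) of -0.074, and G outnumbered C on the right, with 0.067. T against A behaved alike, with -0.050 and 0.045. Read along the direction of transcription, both genes of a pair therefore had more G than C and more T than A downstream. Over whole peaks, median G + C content was 64.9% in members, 66.3% in one-way promoters and 46.2% in all tested peaks. The ratio of observed to expected CpG was 0.85, 0.827 and 0.226.

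**Figure D3:**
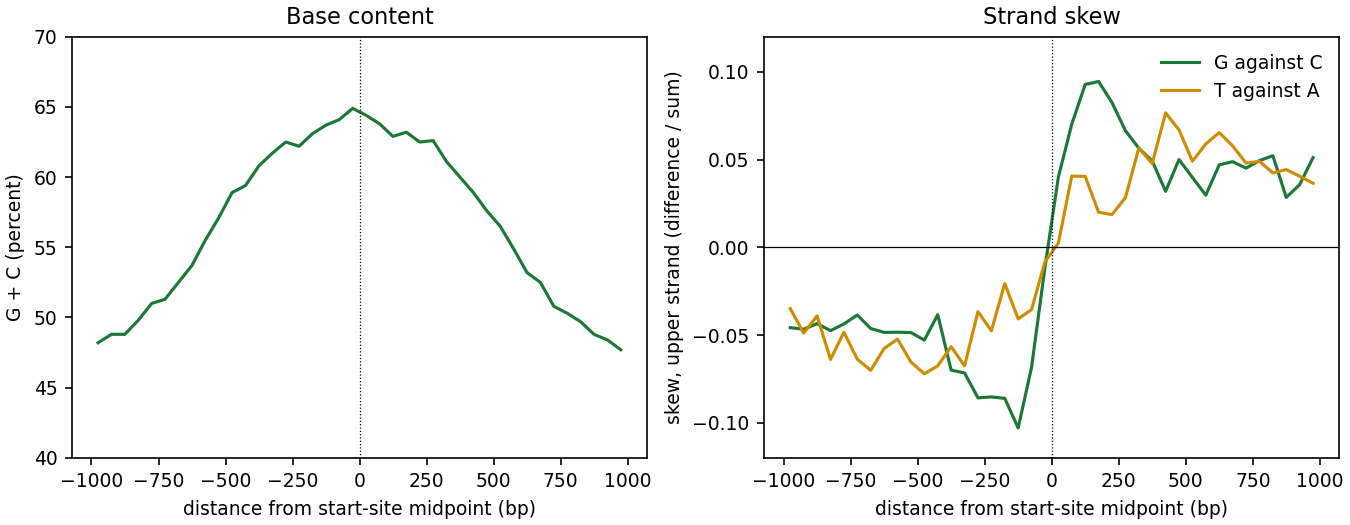
G + C percent (left) and strand skew of the upper strand (right; G against C and T against A, difference divided by sum) in 50-bp bins against the distance in bp from the midpoint of 884 start-site pairs. G + C peaks near 65% at the midpoint and falls to about 48% at 1000 bp on both sides, and both skews pass from below 0 to above 0 at the midpoint.

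Exact words of 10 motifs were searched on both strands of each peak, and 7 of them were in a larger share of members than of one-way promoters. The word CCGGAAGT of ETS factors such as GABPA was in 129 members (17.5%), against 9.06% of one-way promoters and 1.19% of all tested peaks. GCGCATGC, of NRF1, was in 9.49% of members, 6.32% of one-way promoters and 1.17% of all peaks, and ATGGCGGC, of YY1, in 11.2%, 8.53% and 1.38%. The CCAAT word of NF-Y, searched as CCAATC or CCAATG, was in 313 members (42.4%), 35.7% of one-way promoters and 29.6% of all peaks. The full CREB/ATF site TGACGTCA was in 5.42%, 3.90% and 0.758%, the E-box CACGTG, a word of MITF and MYC, in 14.1%, 13.5% and 6.85%, and ACTACAAT, of ZNF143, in 14 members (1.90%), 1.12% and 1.11%. As a ratio of members to one-way promoters, the shares were highest for ETS (1.93) and ZNF143 (1.70), followed by NRF1 (1.5) and CREB/ATF (1.39). The ratio was 1.32 for YY1, 1.19 for NF-Y and 1.04 for the E-box. A match is a string of letters in a 502-bp window and shows no binding.

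The other 3 words were in a smaller share of members than of one-way promoters. The GC box GGGGCGGGG of SP1 was in 30.9% of members, 34.8% of one-way promoters and 5.40% of all peaks. TGACTCA or TGAGTCA, of AP-1, which are the same site on either strand, was in 24 members (3.25%), 6.01% of one-way promoters and 28.0% of all peaks. The TATA word TATAAAA was in 15 members (2.03%), 2.50% and 12.1%. No word contains another, but words of different motifs may overlap in a sequence.

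Members with a CCAAT word had a median normalized count of 1328 in empty vector, against 879 without one, and the 14 with the ZNF143 word 2148, against 1050. For the ETS word the medians were 1082 and 1061. In log2 fold change the groups with and without each of the 10 words were close: the medians with a word lay between -0.14, for AP-1, and -0.065, for ZNF143, and those without between -0.11 and -0.098.

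HMGB2OE and empty vector cells differed little at bidirectional promoters. In edgeR's quasi-likelihood test over all peaks, a peak was called where the adjusted p was under 0.05 and the fold at least 1.5. By this measure 0 of 738 members were higher and 0 lower, beside 1.87% (higher) and 1.44% (lower) of all peaks tested. DESeq2's test also called 0 and 0. At an unadjusted p under 0.05, 5 members were higher (0.678%, beside 3.24% of one-way promoters and 10.7% of all tested peaks) and 157 lower (21.3%, beside 13.5% and 10.2%). The intervals were narrow: for 724 members (98.1%) the 95% interval of the fold change lay within 1.5-fold in both directions, against 91.5% of one-way promoters and 53.9% of all tested peaks, and for 473 (64.1%) within 0.32 on the log2 scale. Of the 14 members whose interval reached further, 13 had under 500 normalized counts in empty vector.

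Calls were rare at this level in every class of peak. In the top decile by level, 0 of 549 members, 0 of 4278 one-way promoters and 12 of 10185 other peaks (0.118%) were called at 1.5-fold in either direction. In the next decile it was 0 of 139, 0 of 1995 and 178 of 12878 (1.38%). In the fifth decile, with mean counts of 81.4 to 105, 4.98% of one-way promoters and 5.90% of other peaks were called, but only 1 member lay there.

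Most members had slightly lower counts in HMGB2OE. The log2 fold change was below 0 in 642 of 738 (87.0%), against 73.9% of one-way promoters and 50.8% of all tested peaks. Its median was -0.10, a change of -6.74%, against -0.077 and -0.0049. The median normalized count of the members was 1040, 1096 and 1048 in the empty vector libraries and 978.8, 1011 and 923.7 in the HMGB2OE libraries, so each HMGB2OE library was below each empty vector library. The libraries of single members did not overlap, with HMGB2OE lower, in 224 (30.4%), against 12.5% of all tested peaks and 21.5% of one-way promoters, and with HMGB2OE higher in 7 (0.949%), against 12.6% and 4.34%. Since all members are scaled by the same 6 factors, they are not independent of each other. The size of this shift depended on the scaling: the median was -0.051 with 69.4% below 0 after a loess trend of fold change on level was removed, and -0.08 with 82.0% below 0 on library size alone.

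Other peaks shifted in the same direction in the top decile by level and in the next, where most members lie. In the top decile by level the median log2 fold change was -0.094 in members, -0.083 in one-way promoters and -0.051 in other peaks. In the next decile it was -0.14, -0.092 and -0.027. The eighth decile, with 23 members, had -0.115, -0.060 and 0.010, so other peaks did not shift downwards there. A decile is a coarse match of level: the top one spans mean counts of 661 to 79666. Whether members differ from one-way promoters of the same level was not tested. The log2 fold changes of the members had an SD of 0.112, beside a median standard error of 0.0828 for a single member.

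**Figure D4:**
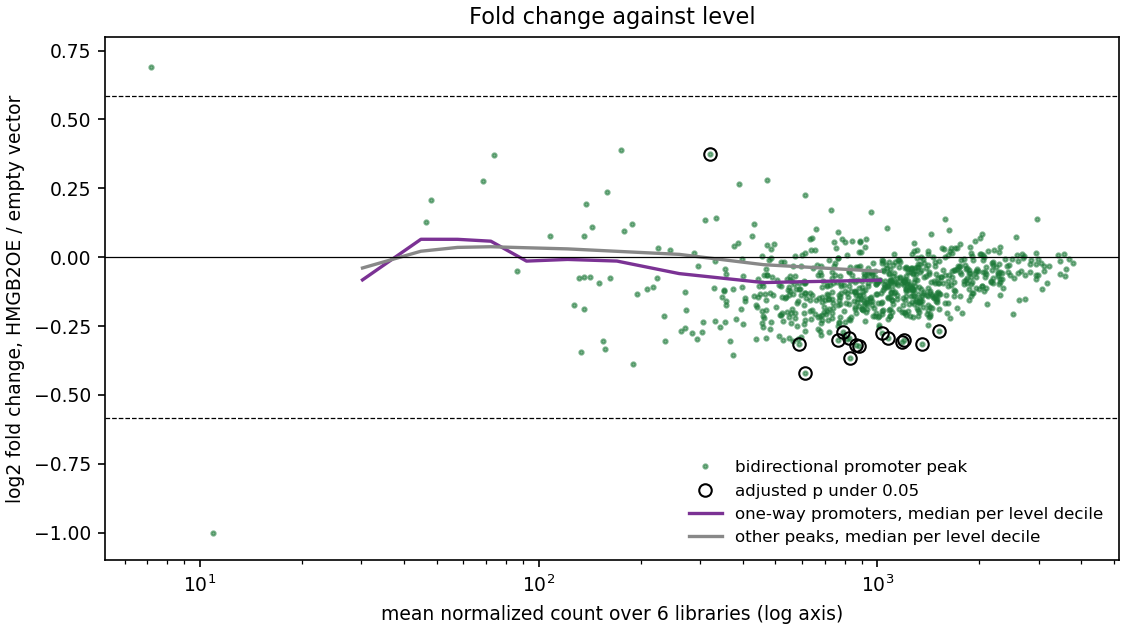
Log2 fold change of HMGB2OE over empty vector (vertical axis) against the mean normalized count over 6 libraries (horizontal log axis) for 738 bidirectional promoter peaks; circles mark the 15 with an adjusted p under 0.05, dashed lines 1.5-fold in either direction, and coloured lines the medians of one-way promoters and of other peaks in deciles of all tested peaks by level. The points narrow with level and most lie below 0, and the 2 points beyond the dashed lines are the MAGEA2 and MAGEA2B copies with mean counts near 10.

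With no fold limit, 15 members had an adjusted p under 0.05 in edgeR, 14 of them lower in HMGB2OE (1.90% of members, where 3.03% of all tested peaks were called lower) and 1 higher (0.136%, where 3.44% were called higher). Both shares were below those of all peaks. Of one-way promoters, 1.6% were called lower and 0.796% higher, so the members' share was above theirs for lower and below theirs for higher. The 14 falls were between -0.42 and -0.27 on the log2 scale, in peaks with mean counts of 651 to 1663 in empty vector. They came from GON4L/SYT11, PRKDC/MCM4, AP3M1/ADK, MBTD1/UTP18, MRPL27/EME1, STX10/IER2, GPC2/STAG3, LRRC40/SRSF11, MINDY1/PRUNE1, WFDC3/DNTTIP1, LCMT2/ADAL, UFSP2/C4orf47, C12orf4/RAD51AP1 and RSRC2/KNTC1. In 14 of the 15 members the libraries of the groups did not overlap, and the exception was GON4L/SYT11. The calls changed when a library was left out. All 90 values of the 15 members without 1 library kept their sign. Those of the 14 that were lower lay between -0.55 and -0.19. The 15 were chosen by their adjusted p over these same libraries. The lack of overlap and the kept signs are thus no further evidence of a difference or its direction. At an adjusted p under 0.05, only STX10/IER2 was lower without empty vector replicate 2 and without HMGB2OE replicate 3, and only GPC2/STAG3 without HMGB2OE replicate 1 (1 member each), against 21 without empty vector replicate 3.

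STX10/IER2, on chr19:13149990-13150491, had the smallest adjusted p of all members. STX10 encodes a syntaxin of the trans-Golgi network and IER2 an immediate early gene product. Its normalized counts were 1505, 1486 and 1520 in empty vector and 1216, 1216 and 1194 in HMGB2OE. The libraries of each group lay close together and the groups were well apart. The log2 fold change was -0.31 (standard error 0.0747; 95% interval, -0.47 to -0.16; edgeR adjusted p = 0.00951). It had an adjusted p under 0.05 in 14 of 15 alternatives, with 0.0531 without HMGB2OE replicate 1.

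GPC2/STAG3, on chr7:100177269-100177770, pairs a cell surface glypican with the cohesin subunit of meiosis. Its counts were 1319, 1340 and 1260 in empty vector and 1092, 1040 and 1032 in HMGB2OE. All HMGB2OE libraries were below all empty vector libraries (log2 fold change -0.31, standard error 0.0776; edgeR adjusted p = 0.0141). Its adjusted p was 0.0709 without empty vector replicate 2, 0.0689 without HMGB2OE replicate 2 and 0.0503 without HMGB2OE replicate 3.

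GON4L/SYT11 had the lowest log2 fold change of the 15. GON4L encodes a nuclear regulator of transcription and SYT11 a synaptotagmin. Counts were 780, 752 and 569 in empty vector and 493, 589 and 485 in HMGB2OE. The lowest empty vector library was thus below the highest HMGB2OE library (log2 fold change -0.42, standard error 0.107; edgeR adjusted p = 0.0159). The other 38 tested peaks within 100 kb had a median log2 fold change of -0.16.

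SOX18/TCEA2, with start sites 197 bp apart, was the only member that was higher. Its peak covers the start site of SOX18 and not that of TCEA2. SOX18 is a transcription factor of blood and lymph vessel endothelium and TCEA2 a transcription elongation factor. Counts were 239, 289 and 307 in empty vector and 347, 383 and 358 in HMGB2OE. The groups did not overlap (log2 fold change 0.38, standard error 0.114; edgeR adjusted p = 0.0422), and the other 31 tested peaks within 100 kb had a median of 0.01. The adjusted p was 0.057 in DESeq2. It lay between 0.0718 and 0.159 without empty vector replicate 1 or 2 or any 1 HMGB2OE library.

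**Figure D5:**
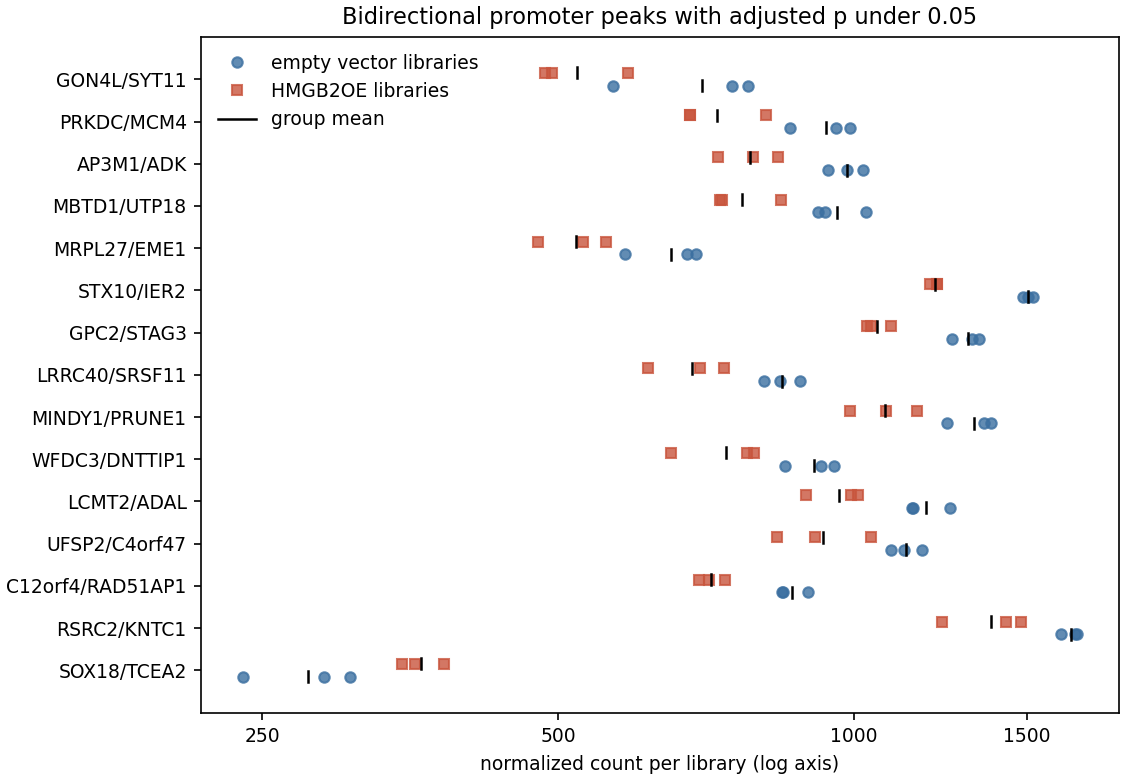
Normalized count in each library (horizontal log axis) of the 15 bidirectional promoter peaks with an adjusted p under 0.05 in edgeR, with circles for the 3 empty vector libraries, squares for the 3 HMGB2OE libraries and short vertical lines for the group means. In 13 of the 14 peaks that were lower, all squares lie left of all circles, at GON4L/SYT11 the groups overlap, and at SOX18/TCEA2 all squares lie right.

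Pairs long known as bidirectional were examined next. Of 12 such pairs, 7 had a member peak. The other 5 (COL4A1/COL4A2, HSPD1/HSPE1, SURF1/SURF2, TAP1/PSMB9 and ZAR1L/BRCA2) had none under this rule, which takes only the outermost start of each gene. PRKDC/MCM4, with start sites 7 bp apart, joins the catalytic subunit of the DNA-dependent protein kinase to a subunit of the replicative helicase. Its counts were 991, 959 and 861 in empty vector and 681, 814 and 682 in HMGB2OE. The groups did not overlap (log2 fold change -0.37, standard error 0.0905; edgeR adjusted p = 0.0125). The other 9 tested peaks within 100 kb had a median log2 fold change of -0.26. The adjusted p was 0.0517 without empty vector replicate 2, 0.0994 without HMGB2OE replicate 1 and 0.0585 without HMGB2OE replicate 3.

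The other 6 textbook pairs did not pass the test. PPAT/PAICS, which holds genes of purine synthesis, had counts of 1615, 1508 and 1567 in empty vector and 1425, 1435 and 1373 in HMGB2OE. Its groups did not overlap, with a log2 fold change of -0.15 (95% interval, -0.30 to 0.01; edgeR adjusted p = 0.262). SIRT3/PSMD13, with a mitochondrial deacetylase and a proteasome subunit, had 798, 791 and 759 against 692, 766 and 633. Those groups overlapped by 1 library (log2 fold change -0.17; 95% interval, -0.35 to 0.02; edgeR adjusted p = 0.294).

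NPAT/ATM, with the activator of histone transcription and the kinase of the DNA damage response, had 1843, 1964 and 2061 in empty vector and 1848, 1854 and 1781 in HMGB2OE. The lowest empty vector library was inside the range of HMGB2OE (log2 fold change -0.10; 95% interval, -0.25 to 0.05). TK1/AFMID, with thymidine kinase and a formamidase of tryptophan breakdown, had a log2 fold change of -0.07 (95% interval, -0.22 to 0.08). PDCD10/SERPINI1 had -0.01 (-0.17 to 0.15) and SARS2/MRPS12, with a mitochondrial seryl-tRNA synthetase and a mitochondrial ribosomal protein, 0.0023 (-0.15 to 0.16). For the last 2 the sign flips under other scalings, and for all 6 the intervals leave out a 1.5-fold difference in either direction.

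Gene families differed in how often they used this arrangement. Of 145 genes of DNA repair and replication, 40 (27.6%) were in a pair. So were 49 of 216 genes of the mitochondrial respiratory chain, ribosome and import (22.7%), and 27 of 95 histone genes (28.4%). The share was 8.54% over all protein-coding genes. Of the 15 pairs with a histone gene, 14 joined 2 histone genes. Splicing and RNA helicase genes had 17.6%, proteasome and antigen processing genes 14.5%, genes of the cytosolic ribosome, translation factors and tRNA synthetases 13.2% and genes of cyclins and cell division 11.4%. Collagens had 9.09%, chromatin modifiers 8.11% and zinc finger genes 6.58%. Of 153 genes found by the name stems of neural guidance and adhesion families, 1 was in a pair, and this was UNC50, which shares only the stem of its symbol with the UNC5 netrin receptors.

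No list had a member called at 1.5-fold, and few members passed the test with no fold limit. In the list of DNA repair and replication 1 of 35 tested members was lower (PRKDC/MCM4) and 0 higher. Its median log2 fold change was -0.098, against -0.10 over all members. This list leaves out RAD51AP1 and EME1, whose pairs C12orf4/RAD51AP1 and MRPL27/EME1 were also lower. PRSS54/GINS3, with a subunit of the GINS replication complex, had the highest value, 0.28 (standard error 0.105; edgeR adjusted p = 0.111). Among mitochondrial genes 1 of 42 members was lower, MRPL27/EME1, with a median of -0.14. NDUFB1/CPSF2, with a complex I subunit and a factor of mRNA 3′ cleavage, had the lowest value, -0.36 (edgeR adjusted p = 0.0772), and SKA3/MRPL57 the highest, 0.02.

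In splicing and RNA helicase genes 1 of 22 members was lower, LRRC40/SRSF11, with the splicing factor SRSF11 and counts of 842, 881 and 811 against 698, 738 and 618 (log2 fold change -0.30; edgeR adjusted p = 0.0362). LSM7/SPPL2B had the lowest value of that list, -0.39 (edgeR adjusted p = 0.0819), at a mean of 216 counts, and PUS3/DDX25 the highest, 0.04. In the 12 tested histone members 0 were higher and 0 lower. All 12 had log2 fold changes below 0 (median -0.10), from -0.30 at H3C7/H2BC9 (edgeR adjusted p = 0.139) to -0.02 at H2BC8/H2AC8, whose sign flips on library size alone and after the loess trend.

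In the remaining lists 0 members passed the test in either direction in edgeR. The lists took chosen symbols or name stems and leave out some genes of their themes. RSRC2/KNTC1, MBTD1/UTP18 and WFDC3/DNTTIP1, which were lower, are in none of the lists. The 29 zinc finger members had a median log2 fold change of -0.16, from -0.30 at C17orf75/ZNF207 to 0.13 at SATL1/ZNF711. The 23 members of ribosome, translation factors and tRNA synthetases had a median of -0.12, from -0.31 at SNCB/EIF4E1B to 0.0023 at SARS2/MRPS12. The 17 of cyclins and cell division had a median of -0.12, from -0.29 at KIAA1143/KIF15 to -0.0004 at CDC26/PRPF4, whose sign is not settled. The median over all members was -0.10, and that of the zinc finger members was the lowest of the 11 lists.

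Of the 8 members with a chromatin modifier gene, 62.5% had a log2 fold change below 0, with a median of -0.043. CAB39L/SETDB2, with a lysine methyltransferase gene, had 2642, 2865 and 2963 counts in empty vector and 3165, 2980 and 3174 in HMGB2OE. All HMGB2OE libraries were above all empty vector libraries there, with a log2 fold change of 0.14 that did not pass the test (edgeR adjusted p = 0.264). HDAC3/RELL2, with a histone deacetylase, had -0.13. The 9 proteasome and antigen processing members had a median of -0.056. PSMA1/PDE3B reached 0.39 at counts of 156, 157 and 140 against 182, 189 and 226, which did not overlap (edgeR adjusted p = 0.0829).

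The 2 collagen pairs were both of type IV collagen, the network collagen of basement membranes, whose genes are arranged head to head. COL4A4/COL4A3 had a mean of 179 counts in empty vector and a log2 fold change of 0.12 (95% interval, -0.15 to 0.39), and COL4A6/COL4A5 145 counts and -0.19 (-0.49 to 0.11). Both were far below the median level of bidirectional promoters. COA5/UNC50 had 488 counts and a log2 fold change of -0.13 (95% interval, -0.35 to 0.08).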

How the data were processed

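ATAC-seq libraries of A375 cells, 3 of empty vector and 3 of HMGB2OE, were compared. Per the study's methods and the submitters' processing notes, the authors trimmed reads (Trim Galore 0.6.7, cutadapt 4.0), mapped them to hg38 (Bowtie 2), dropped duplicates (Picard) and called peaks with MACS2, for which a public melanocyte dataset was the control. Peaks were merged into 1 list. They deposited the raw counts per peak and library that featureCounts gave, with no normalization and no pooling. How reads with several alignments were treated, and whether positions were shifted for Tn5, is not given in the sources used here. Peak starts may count from 0, an uncertainty of 1 base.

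Start sites were those of GENCODE release 44 gene lines on hg38. The test was that of edgeR 4.0.16 under R 4.3.3 (TMM, filterByExpr, quasi-likelihood F test with no covariate, Benjamini-Hochberg adjustment over 150117 tested peaks). Counts in peaks were 26910189 to 45645294 per library, and a median standard error of 0.0828 on the log2 scale followed for members. A normalized count is the count over the library's effective size, times the mean effective size of the 6 libraries. For standard errors the absolute log2 fold change was divided by the root of the F statistic, and 95% intervals use the t distribution. DESeq2 1.42.0, other scalings, filters, fold limits, a replicate block, GC-content offsets, left-out libraries and narrower rules for members were the alternatives. The counts with no fold limit and of narrow intervals under each setting were added after seeing the data. The fit was tested on simulated data. Motif shares, levels and medians are descriptions with no test.

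Named pairs are those called at 1.5-fold (none), pairs known from textbooks, the 5 highest and 5 lowest by mean count in empty vector, the 3 smallest adjusted p in each direction below 1.5-fold, and the highest and lowest fold change of each of 11 gene lists. Others with an adjusted p under 0.05 were named after their values were seen. Some pairs and genes that these rules name are not reported here. The members and lists were chosen with earlier results of these data known.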

Additional observations from a re-analysis of the deposited data

How the results depend on the processing

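Under every alternative run, 0 members were called at 1.5-fold in either direction by edgeR or DESeq2. With a fold limit of 0.32 on the log2 scale 1 member was higher and 3 lower. The share of all tested peaks at that limit was not counted, so these 2 counts have no background. With no fold limit 1 was higher and 14 lower, where 3.44% and 3.03% of all tested peaks were. The median log2 fold change was -0.051 after removal of a loess trend and between -0.12 and -0.078 when 1 library was left out. With no fold limit, the count of members that were higher was 4 after the loess trend, 0 with DESeq2's test, 2 with GC-content offsets, 3 with the replicate block and GC-content offsets together, and 0 to 1 without single libraries. The count that were lower was 24 with the replicate block and GC-content offsets together and 1 to 21 without single libraries. Taking only peaks centred between the start sites left 322 tested members, of which 0 were higher, 6 lower and 317 with an interval within 1.5-fold, since fewer peaks were counted. The replicate block alone gave 1 higher and 21 lower, 14 of the 15 original calls among them. Deviations of same-numbered libraries correlated at -0.0884, 0.191 and 0.128 over peaks, and empty vector replicate 1 correlated best with HMGB2OE replicate 3, so the numbers were not taken to pair the libraries.

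Among the named pairs, signs flipped only where the log2 fold change was near 0. On library size alone the value was 0.0159 at NDUFA11/ENSG00000267314, 0.0117 at PDCD10/SERPINI1, 0.0032 at H2BC8/H2AC8 and 0.0212 at CDC26/PRPF4. After the loess trend it was 0.0437 at PMEL/RAB5B, 0.0632 at NDUFA11/ENSG00000267314, 0.0534 at PDCD10/SERPINI1, 0.0386 at H2BC8/H2AC8 and 0.0640 at CDC26/PRPF4. With GC-content offsets, without and with the replicate block, it was -0.0144 and -0.0119 at TRMT1L/SWT1, -0.0158 and -0.0151 at SARS2/MRPS12, 0.0041 and 0.0068 at CDC26/PRPF4. CDC26/PRPF4 was also at 0.0040 with DESeq2's size factors, 0.0039 with its test and 0.0035 with the block. Without single libraries the range was -0.0694 to 0.0518 at CDC26/PRPF4, -0.0974 to 0.1028 at NDUFA11/ENSG00000267314, -0.0791 to 0.0558 at PDCD10/SERPINI1, -0.0817 to 0.0456 at PMEL/RAB5B, -0.1340 to 0.1245 at PUS3/DDX25, -0.0453 to 0.0314 at SARS2/MRPS12, -0.0234 to 0.0983 at SKA3/MRPL57 and -0.0443 to 0.0740 at TRMT1L/SWT1. The causes were not tested.

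With 3 libraries a group and an SD between library medians of 0.0351, shifts of all members by a few hundredths could not be resolved. Peaks under about 500 normalized counts had wider intervals, and duplicated genes cannot be placed. Of the named pairs' values under the alternatives, 579 kept their direction and side of the threshold, and 36 changed sign. Another 75 lost and 12 gained an adjusted p under 0.05.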
